A study of Mus musculus with 9 samples.

Results

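Glycolysis genes and genes of the hypoxia response, 35 in all, were followed through 9 RNA sequencing libraries of mouse natural killer (NK) cells. They were taken by symbol from the count tables, where each matched 1 of the 27179 genes by its Entrez identifier, and all 35 had enough reads to be tested in the cultures. They comprise 3 transporters of glucose and lactate, 9 enzymes of upper and 7 of lower glycolysis, 3 kinases that set glycolytic flux, the hypoxia factor gene Hif1a with 2 prolyl hydroxylase genes, and 10 further genes that cells induce when oxygen is low. The list was drawn up from gene function, with earlier results of these data known.

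Glycolysis splits glucose into pyruvate in the cytosol, and lymphocytes raise it when cytokines activate them. Hypoxia-inducible factor 1 (HIF-1) is a pair of proteins, of which HIF-1α, encoded by Hif1a, is hydroxylated by prolyl hydroxylases and destroyed while oxygen is present. When oxygen falls, or when signalling raises its synthesis, HIF-1α accumulates and switches on glucose transporters, nearly every glycolytic enzyme and a set of adaptive genes, largely without any need for more Hif1a mRNA.

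The groups were 3 libraries of Id2-null NK cells, 3 of wild-type (WT) NK cells, and 1 library each of 3 wild-type populations named Immature, M1 and M2. All cells came from spleen of C57BL/6 mice. The genotyped cells were cultured with interleukin-15 (IL-15), a cytokine that NK cells need to live and divide, for 7 days, and the 3 named populations were sorted and used for RNA without culture. The labels assign culture by sample number, read here in listed order. The sources used here do not give the way Id2 was deleted, the markers of the sort, or the sex and number of mice. The labels do not state that replicates were separate mice or cultures. The p-values therefore measure only how far these libraries spread, and that spread may be technical.

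Total counts ran from 4128414 to 4831831 per library, so that a count of 0 allows up to 0.621 to 0.727 CPM, the count scaled to library size, taking 3 counts as the upper limit, which allows for counting error alone. Id2, the deleted gene, had counts of 56, 113 and 44 in Id2-null libraries and of 1958, 1925 and 1945 in WT libraries. Xist, which female cells express, stood at 688.0 to 916.5 CPM in Id2-null cultures and 0.217 to 1.21 CPM in WT cultures, so genotype and sex cannot be told apart in any comparison between them. All 12 NK marker genes were detected in the cultures, while S100a8 and S100a9 of neutrophils, Lyz2 and Adgre1 of macrophages and Pax5 and Ms4a1 of B cells had 0 counts in all 6. Markers of other cells were not all absent. Of the T cell list Cd4 had 0 counts, but Cd3d had 71 to 775, Cd3g 86 to 639 and Cd3e 43 to 396 per culture. Cd68 of the macrophage list had 21 to 99, and Itgax of the dendritic cell list 1641 to 2969. In both genotypes replicate 3 was unlike replicates 1 and 2, and its values are therefore given beside theirs throughout. Id2-null replicate 3 also stood apart alone: 38 genes, among them the pseudogenes Rpl13-ps6 and Rpl17-ps9, lay more than 3 below its replicates 1 and 2 on the log2 scale while WT replicate 3 lay within 0.5 of its own, against 1 gene the other way round, a count made after the values were seen. In bulk libraries such as these, fewer cells that express a gene and less RNA per cell cannot be told apart.

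The members differed widely in level. On a scale per length (RPKM, the CPM divided by the gene's length in kilobases), Aldoa led with a mean of 1302.1 RPKM over the 6 cultures, followed by Ldha with 865.2, Pkm with 721.2, Tpi1 with 603.6, Eno1 with 520.3 and Gpi1 with 431.1 RPKM. These are enzymes of the glycolytic trunk, and the rate-setting hexokinases stood lower, with 70.4 RPKM for Hk1 and 19.8 RPKM for Hk2. Of the phosphofructokinases, Pfkp had 152.3, Pfkl 75.8 and the muscle form Pfkm 8.24 RPKM. Gapdh, usually among the most abundant transcripts, had a mean of only 36.4 RPKM, and of the 50-base stretches of its coding gene transcripts 58.4% also occur in transcripts of 222 other genes, 215 of them pseudogenes. The sources used here do not say how reads with several matches were counted, so the counts of Gapdh, and of Eno1b, Pgk1, Bnip3, Eno1 and Pgam1 with 85.2, 68.0, 59.1, 49.5 and 41.5% of their stretches shared, are uncertain.

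**Figure D1:**
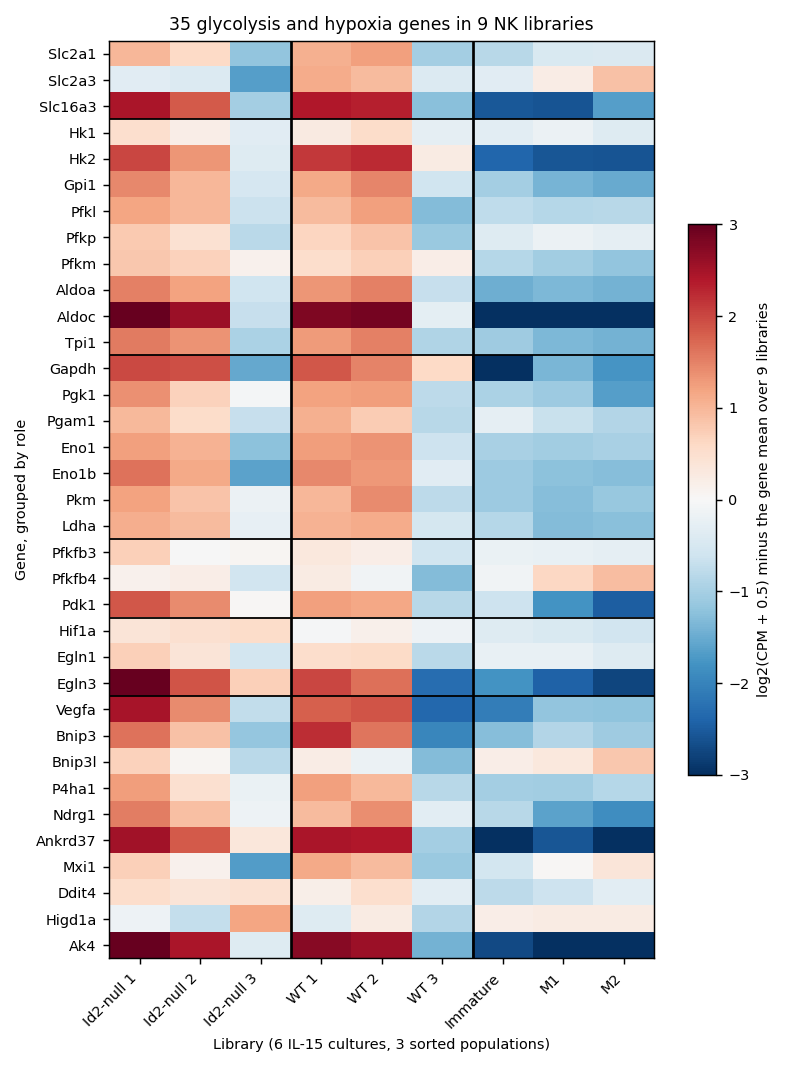
Log2(CPM + 0.5) of each of the 35 genes minus its mean over the 9 libraries, with libraries in columns (6 IL-15 cultures, then the sorted Immature, M1 and M2 populations) and genes in rows grouped by role. Replicates 1 and 2 of both genotypes are high for most genes, and replicate 3 of both genotypes is lower for 31 of the 35.

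The members separated the cultures by replicate number. In a model with genotype and replicate number, the replicate number was called for 20 of 35 members, with adjusted p from 0.0132 to 0.0409 (edgeR quasi-likelihood F-test on both replicate coefficients, Benjamini-Hochberg adjusted over all genes and called under 0.05), against 135 of 11022 genes tested, or 1.22%. All 20 were lowest in replicate 3 of both genotypes, as were 109 of the 135 genes called, while 24 of those 135 were highest there. Of the whole list, 31 members were lowest in replicate 3 of both genotypes, against 21.1% of all genes, and 0 were highest there, against 21.3%. As a description of libraries singled out with results known, the median member stood at -1.60 on the log2 scale in replicate 3 of Id2-null cells relative to the mean of its replicates 1 and 2, and at -1.93 in WT, where the medians of all genes tested were -0.01 and 0.00. In 23 members, against 1.56% of all genes, replicate 3 was more than 2-fold below each of replicates 1 and 2 in both genotypes. DESeq2 called 27 members (3.17% of genes) and limma voom 21 (1.42%).

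**Figure D2:**
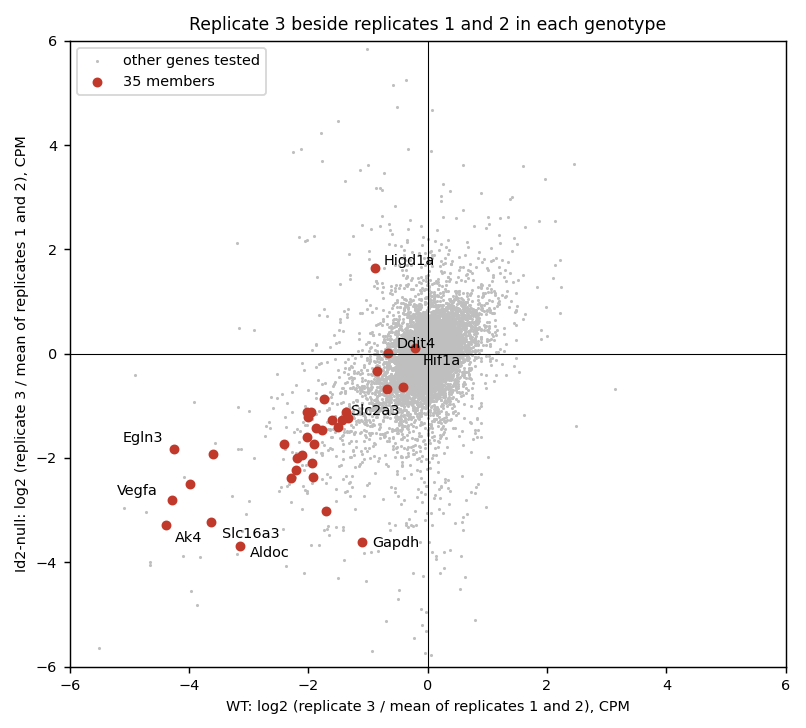
Log2 ratio of CPM in replicate 3 to the mean of replicates 1 and 2, in Id2-null cultures (vertical axis) against WT cultures (horizontal axis), for the 35 members (red) and all other genes tested (grey). Most members lie at the lower left, with medians of -1.60 in Id2-null and -1.93 in WT, while Hif1a lies near 0 on both axes and Higd1a lies above 0 in Id2-null and below 0 in WT.

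These calls rest on few libraries. With 1 library left out, the fit has 1 residual degree of freedom, and the number of that library rests on 1 library alone. Such fits cannot show that libraries of both genotypes share a level at that number. Without Id2-null replicate 1, or without WT replicate 1, edgeR called 0 members and 0 genes (lowest adjusted p = 0.123 and 0.128), although 28 members in each case had an unadjusted p under 0.05, against 8.99 and 10.5% of genes. Without Id2-null replicate 3 it called 31 members, against 8.18% of genes, and without WT replicate 3 also 31, against 21.5%.

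All 3 transporters were called. Slc16a3 (Entrez 80879, chromosome 11, positions 120948484 to 120959000 in GRCm38) encodes MCT4, which exports lactate, and stood at 377.7, 250.1 and 33.6 CPM in Id2-null replicates 1, 2 and 3, and at 366.6, 346.8 and 28.8 CPM in WT replicates 1, 2 and 3. Replicate 3 was thus 9.35-fold below the mean of the others in Id2-null and 12.4-fold below it in WT, and the genotypes overlapped (adjusted p = 0.0132 for replicate number, edgeR). Slc2a1 (Entrez 20525, chromosome 4, positions 119108745 to 119137330) encodes GLUT1, the main glucose carrier of activated lymphocytes, and had 248.9, 187.7 and 54.5 CPM in Id2-null cells and 260.8, 292.9 and 60.8 CPM in WT replicates 1 to 3. Slc2a3 (Entrez 20527, chromosome 6, positions 122727809 to 122802363) encodes GLUT3, a carrier of high affinity, and had 147.0, 140.1 and 59.4 CPM in Id2-null cultures and 403.2, 358.1 and 140.2 CPM in WT replicates. Replicate 3 of WT, the lowest of its genotype, reached only the level of replicate 2 of Id2-null cells for Slc2a3.

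In upper glycolysis, 7 of 9 enzyme genes were called for replicate number and all 9 were lowest in replicate 3 of both genotypes. Hk2, the hexokinase that HIF-1 induces, stood at 149.5, 93.2 and 28.2 CPM in Id2-null replicates 1 to 3 and at 162.3, 177.2 and 44.3 CPM in WT. Hk1, the constitutive hexokinase, was not called (adjusted p = 0.16, edgeR) and ran from 222.2 to 404.9 CPM over the 6 cultures. Gpi1, which converts glucose 6-phosphate to fructose 6-phosphate, had 1815.4, 1344.4 and 476.0 CPM in Id2-null, against 1473.4, 1838.2 and 439.9 CPM in WT replicates. The level of Gpi1 in replicate 3 was 3.32-fold and 3.76-fold below that in the others, in Id2-null and in WT cells. Among the phosphofructokinases, which catalyse the committed step, Pfkl had 402.1, 351.7 and 113.5 CPM in Id2-null cells and 341.2, 412.2 and 70.8 CPM in WT replicates. Pfkp had 837.6, 665.5 and 280.1 CPM in Id2-null cultures and 758.5, 878.2 and 223.1 CPM in WT replicates. Both liver and platelet forms were low in replicate 3, while the muscle form Pfkm was not called and ran from 18.8 to 30.5 CPM.

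The next steps split the sugar into triose phosphates and interconvert them. Aldoa (Entrez 11674, chromosome 7, positions 126795234 to 126800994), the chief aldolase of these cells, stood at 3430.0, 2798.4 and 810.4 CPM in Id2-null, against 3000.3, 3461.9 and 748.9 CPM in WT replicates 1 to 3. Aldoc (Entrez 11676, chromosome 11, positions 78323073 to 78327781), the aldolase best known from brain, had 292.5, 179.0 and 18.2 CPM in Id2-null cells and 207.1, 218.6 and 24.1 CPM in WT replicates. Relative to the mean of the others, replicate 3 of Aldoc stood at -3.70 on the log2 scale in Id2-null and at -3.14 in WT, and that of Aldoa at -1.94 and -2.11. Tpi1, triosephosphate isomerase, had 1442.9, 1248.4 and 257.5 CPM in Id2-null cultures and 1181.6, 1405.4 and 262.8 CPM in WT replicates, so its replicate 3 values were alike in both genotypes.

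In lower glycolysis, 3 of 7 members were called and all 7 were lowest in replicate 3 of both genotypes. Pgam1, phosphoglycerate mutase, stood at 112.7, 84.3 and 35.5 CPM in Id2-null, against 119.4, 97.3 and 31.8 CPM in WT replicates 1 to 3. Eno1, the enolase of most tissues, had 1248.7, 1098.3 and 226.2 CPM in Id2-null cells and 1264.1, 1362.1 and 345.1 CPM in WT replicates. Ldha (Entrez 16828, chromosome 7, positions 46842274 to 46855627), which turns pyruvate into lactate, had 2162.1, 1985.8 and 860.7 CPM in Id2-null cultures and 2099.3, 2202.3 and 708.5 CPM in WT replicates. Ldha was thus 2.41-fold and 3.04-fold lower in replicate 3, a smaller step than that of the lactate exporter Slc16a3. The members not called were Gapdh, Pgk1, Eno1b and Pkm, with adjusted p from 0.0547 for Eno1b to 0.234 for Gapdh (edgeR). Over the 6 cultures Pgk1, phosphoglycerate kinase, which lies on the X chromosome, ran from 39.6 to 177.0 CPM, and Eno1b, a near-copy of Eno1, from 55.2 to 524.9 CPM. Pkm, pyruvate kinase, stood at 977.2 CPM in Id2-null replicate 3 and 633.6 CPM in WT replicate 3, and at 2008.8 to 2908.5 CPM in the other 4 cultures.

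**Figure D3:**
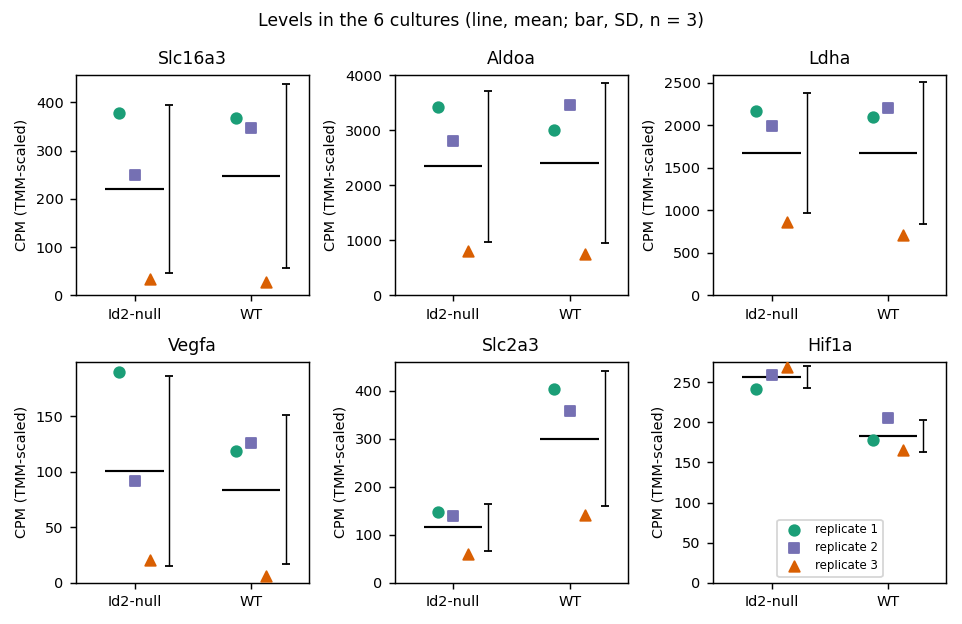
TMM-scaled CPM of 6 members in each of the 6 cultures, by genotype, with a symbol for each replicate number, a line at the mean and a bar of 1 SD (n = 3). Replicate 3 is lowest in both genotypes for Slc16a3, Aldoa, Ldha, Vegfa and Slc2a3, whereas for Hif1a the 3 Id2-null values, 241.6 to 268.8 CPM, lie above the 3 WT values, 166.0 to 205.3 CPM.

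Of the flux-setting kinases, only Pdk1 was called for replicate number. Pdk1 (Entrez 228026, chromosome 2, positions 71873215 to 71903858) inhibits pyruvate dehydrogenase and so keeps pyruvate out of mitochondria. It stood at 379.3, 280.2 and 108.4 CPM in Id2-null, against 245.5, 234.6 and 58.8 CPM in WT replicates 1 to 3, with Id2-null above WT in each pair. Pfkfb3 and Pfkfb4 make fructose 2,6-bisphosphate, the activator of phosphofructokinase, and neither was called. Pfkfb3 ran from 50.5 to 125.4 CPM, and its lowest Id2-null value was in replicate 2. Pfkfb4 was scarce, at 1.21 to 4.55 CPM.

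Hif1a itself was not called for replicate number. Hif1a (Entrez 15251, chromosome 12, positions 73901324 to 73947554) had 241.6, 258.9 and 268.8 CPM in Id2-null cells and 178.3, 205.3 and 166.0 CPM in WT replicates 1 to 3 (adjusted p = 0.71 for replicate number, edgeR). Replicate 3 was the highest of the Id2-null cultures and the lowest of the WT cultures for this gene. Egln1 encodes PHD2, the main hydroxylase that marks HIF-1α for destruction, and is itself a HIF target. Its levels were 309.5, 244.5 and 127.2 CPM in Id2-null cultures and 270.6, 276.4 and 106.0 CPM in WT replicates. Egln3, which encodes the inducible hydroxylase PHD3, was not called (adjusted p = 0.128), with 182.5, 84.5 and 37.6 CPM in Id2-null cells and 91.0, 71.0 and 4.23 CPM in WT replicates. Its replicate 3 value was 3.55-fold below the mean of the others in Id2-null and 19.2-fold below it in WT.

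Among the 10 further hypoxia genes, 5 were called and 8 were lowest in replicate 3 of both genotypes. Vegfa (Entrez 22339, chromosome 17, positions 46016993 to 46032377), the vascular endothelial growth factor, stood at 189.9, 92.1 and 20.1 CPM in Id2-null, against 118.5, 126.3 and 6.24 CPM in WT replicates 1 to 3. Bnip3 (Entrez 12176, chromosome 7, positions 138890836 to 138909506), a receptor that delivers mitochondria to autophagy, had 89.1, 53.6 and 12.6 CPM in Id2-null cells and 134.8, 88.4 and 7.04 CPM in WT replicates. Both were lower in replicate 3 by a larger factor in WT (19.6-fold and 15.8-fold) than in Id2-null cells (7.01-fold and 5.65-fold), a difference that was not tested. Bnip3l, its relative that acts in the same process, had 267.5, 173.5 and 93.9 CPM in Id2-null cultures and 190.9, 145.6 and 66.8 CPM in WT replicates. Mxi1, which encodes a MAX partner that opposes MYC, had 32.6, 21.7 and 5.77 CPM in Id2-null, against 43.8, 38.3 and 8.85 CPM in WT replicates. Ak4 (Entrez 11639, chromosome 4, positions 101416478 to 101467771), a mitochondrial adenylate kinase, had 55.3, 37.0 and 4.70 CPM in Id2-null cells and 44.6, 39.9 and 2.01 CPM in WT replicates, which made replicate 3 lower by 9.81-fold and 21.0-fold.

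The others in that group were not called for replicate number. P4ha1, a collagen prolyl hydroxylase subunit, Ndrg1, a stress-induced differentiation gene, and Ankrd37, an ankyrin repeat gene induced by hypoxia, had adjusted p from 0.0668 to 0.0759 (edgeR) and were 2.16-fold to 12.1-fold lower in replicate 3 across both genotypes. Over the 6 cultures P4ha1 ran from 63.2 to 271.9 CPM, Ndrg1 from 64.8 to 237.2 CPM and Ankrd37 from 4.63 to 59.5 CPM, each with its lowest value in WT replicate 3. Ddit4, which encodes the mTORC1 inhibitor REDD1, had 133.6, 121.5 and 128.1 CPM in Id2-null cultures and 103.8, 130.8 and 73.6 CPM in WT replicates 1 to 3. Higd1a, which encodes a mitochondrial protein that associates with the respiratory chain, was highest in replicate 3 of Id2-null cells at 33.8 CPM and lowest in replicate 3 of WT at 7.65 CPM. Neither Ddit4 nor Higd1a therefore followed the pattern in both genotypes. Of the 50-base stretches of Higd1a, 24.4% also occur in 3 other genes, 2 of them pseudogenes. Its high value lies in Id2-null replicate 3, the library that also stood apart alone, and the part of either in that value was not tested.

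HIF-1 binds DNA at the hypoxia response element, whose core reads ACGTG or GCGTG. For the first of these forms, called the core here, RefSeq promoter windows of 300 bases, 250 before to 50 after a transcript start in GRCm38.p6, were searched on both strands (as ACGTG or its complement CACGT). Of 31 members with a window, 24 held the core in at least 1, or 77.4%. The share was 30.4% of the 8589 tested genes with a window and 21.8% of all 27025 genes with a window. By window, 56.0% of the 50 member windows held it, against 19.6% of all 32851 windows, tested genes or not. The members had more windows per gene than all genes, which raises the share with the core in at least 1. Known HIF targets were part of what defined the list, and a match is a description of the letters, not of binding. Promoters of 3 members that were low in replicate 3 of both genotypes are shown beside that of Hif1a, which was not, with the core in capitals on either strand.
Slc16a3, chr11:120948817-120949116, + strand: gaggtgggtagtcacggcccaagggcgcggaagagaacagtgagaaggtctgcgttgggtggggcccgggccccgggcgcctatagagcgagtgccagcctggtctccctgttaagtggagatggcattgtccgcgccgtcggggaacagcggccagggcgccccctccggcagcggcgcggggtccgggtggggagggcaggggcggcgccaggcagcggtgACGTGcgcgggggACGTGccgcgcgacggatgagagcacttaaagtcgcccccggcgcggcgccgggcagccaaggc
Bnip3, chr7:138909457-138909756, - strand: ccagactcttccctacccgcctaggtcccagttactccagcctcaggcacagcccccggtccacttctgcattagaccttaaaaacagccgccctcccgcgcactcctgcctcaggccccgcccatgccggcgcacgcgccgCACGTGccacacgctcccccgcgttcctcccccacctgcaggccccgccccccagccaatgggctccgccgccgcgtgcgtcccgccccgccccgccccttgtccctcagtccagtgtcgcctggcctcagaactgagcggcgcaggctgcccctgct
Ankrd37, chr8:45999801-46000100, - strand: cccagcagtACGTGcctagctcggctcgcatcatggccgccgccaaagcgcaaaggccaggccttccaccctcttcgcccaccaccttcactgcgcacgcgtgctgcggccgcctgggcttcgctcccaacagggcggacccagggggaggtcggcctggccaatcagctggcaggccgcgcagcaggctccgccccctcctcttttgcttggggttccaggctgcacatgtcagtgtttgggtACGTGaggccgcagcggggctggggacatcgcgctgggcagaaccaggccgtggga
Hif1a, chr12:73907617-73907916, + strand: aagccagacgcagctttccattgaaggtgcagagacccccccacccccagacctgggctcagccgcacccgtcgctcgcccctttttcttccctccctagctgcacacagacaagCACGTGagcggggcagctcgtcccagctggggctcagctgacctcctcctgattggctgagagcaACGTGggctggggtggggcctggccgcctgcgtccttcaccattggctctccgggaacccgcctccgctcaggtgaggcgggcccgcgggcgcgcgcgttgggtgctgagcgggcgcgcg
Slc16a3, Ankrd37 and Hif1a held the core at 2 places and Bnip3 at 1. In Bnip3 and at 1 place in Hif1a the core is part of CACGTG, which reads the same on both strands. All 4 genes shown, Hif1a included, are among the 24 of 31 members that held the core, so they do not stand for members without it. The called members Gpi1, Pfkl, Pfkp, Tpi1, Eno1 and Pdk1 had no ACGTG in the windows searched, and the GCGTG form was not searched.

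Further genes of these pathways, 135 in 9 lists, were set beside the members. Of the 113 that could be tested, 7 were called for replicate number, all in the list of other hypoxia targets, where 21 of 24 tested genes were lowest in replicate 3 of both genotypes and the medians relative to replicates 1 and 2 were -0.94 in Id2-null and -1.03 in WT on the log2 scale. Pgm1, phosphoglucomutase, had the lowest adjusted p (0.0149, edgeR), with 208.3, 183.0 and 51.1 CPM in Id2-null, against 152.5, 185.0 and 49.5 CPM in WT replicates 1 to 3. Nampt, which makes NAD from nicotinamide, and Ier3, an early response gene, followed with adjusted p of 0.0184 and 0.0198. The other 8 lists, among them the pentose phosphate pathway, glycogen metabolism, pyruvate entry to mitochondria, mTORC1 and MYC, and proliferation, had 0 called genes for replicate number by this test.

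The proliferation list ordered the replicates differently in each genotype. Its 20 genes, in CPM scaled over all 9 libraries, summed to 4810.2, 5463.3 and 3676.8 CPM in Id2-null cells and 5905.7, 5416.2 and 6210.8 CPM in WT replicates 1 to 3, so that replicate 3 was the lowest of Id2-null and the highest of WT. Mki67, which marks dividing cells, had 1181.6, 1081.5 and 606.9 CPM in Id2-null cultures and 1409.1, 1250.3 and 1309.9 CPM in WT replicates (adjusted p = 0.456 for replicate number). Myc, a driver of glycolytic genes, had 212.2, 243.7 and 136.0 CPM in Id2-null, against 146.7, 182.8 and 149.9 CPM in WT replicates (adjusted p = 0.324). Among the marker lists of other cells, 1 gene, the T cell gene Cd3e, was called for replicate number, with 9.87, 25.7 and 10.7 CPM in Id2-null cells and 17.5, 85.8 and 18.9 CPM in WT. The T cell list, most of whose sum is Thy1, which NK cells share, on the 9-library scale summed to 1399.9, 1919.1 and 1833.8 CPM in Id2-null cells and 1246.1, 1923.0 and 1514.3 CPM in WT. The part of these values in the replicate difference was not tested.

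Between the genotypes, most members had fold changes near 0. Without a replicate term, 0 of 35 members were called between Id2-null and WT cultures, against 370 of 11022 genes, or 3.36%, with 203 genes higher (1.84%) and 167 lower (1.52%, edgeR quasi-likelihood test). At an unadjusted p under 0.05 stood 2 members, against 14.7% of all genes. The median member had a log2 fold change of 0.00 and all genes one of 0.01, and 28 of 35 members lay within 0.5 of 0. The range ran from -1.38 for Slc2a3 to 0.88 for Egln3. DESeq2 called 1 member, Hif1a, against 5.26% of genes, and limma voom 0, against 2.93%. The median standard error of a member's log2 fold change was 0.58, against 0.18 for all genes, and with the replicate number as a block it was 0.16, against 0.15.

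With the replicate block, Slc2a3 alone was called among the members, against 6.31% of genes in either direction and 2.95% lower. It fell by 1.35 in log2 terms in Id2-null cells (SE 0.10, adjusted p = 0.00146, edgeR with the block), with ratios of -1.46, -1.35 and -1.24 in pairs 1, 2 and 3. Its mean was 115.5 ± 48.7 CPM in Id2-null cultures and 300.5 ± 140.6 CPM in WT cultures (SD, n = 3 each), and without the block the log2 fold change was -1.38 (SE 0.45, adjusted p = 0.195). Over the 15 alternatives its adjusted p ran from 8.07e-27 to 0.524. The lowest came from the block without replicate 3 of both genotypes, which left 1 residual degree of freedom and was chosen with results known. The related carrier Slc2a1 had a log2 fold change of -0.29 with the block (SE 0.14, adjusted p = 0.30), and the lactate exporter Slc16a3 one of -0.09 (SE 0.15, adjusted p = 0.781).

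Hif1a was the only member whose genotypes did not overlap, with all 3 Id2-null values above all WT values, against 20.4% of all genes without overlap in either direction. Its mean was 256.4 ± 13.8 CPM in Id2-null cultures and 183.2 ± 20.1 CPM in WT cultures (SD, n = 3 each), and its ratios in pairs 1 to 3 were 0.44, 0.33 and 0.70 on the log2 scale. The log2 fold change of 0.49 (SE 0.12) missed the threshold in edgeR at an adjusted p of 0.0906, and of 0.0541 with the block, and passed it in DESeq2 (log2 fold change 0.48, adjusted p = 0.0304). Its adjusted p over the 15 alternatives ran from 0.0165, in the block without replicate 3 of both genotypes, to 0.333.

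Of the other members, those closest to the threshold with the block were Pdk1 (log2 fold change 0.58, adjusted p = 0.0644, edgeR), Bnip3l (0.41, adjusted p = 0.0692) and Mxi1 (-0.62, adjusted p = 0.0794). Each had the same sign in all 3 pairs, with 0.63, 0.26 and 0.88 for Pdk1, 0.49, 0.25 and 0.49 for Bnip3l, and -0.42, -0.82 and -0.62 for Mxi1. So had Slc2a1, Slc2a3, Hk2, Eno1, Hif1a and Egln3, and the share of all genes that do so was not counted. At an unadjusted p under 0.05 with the block stood 7 of 35 members, against 20.3% of all genes (edgeR). Egln3 had ratios of 1.00, 0.25 and 3.15, so that its log2 fold change of 1.16 with the block (SE 0.43) rested largely on pair 3. Bnip3 had ratios of -0.60, -0.72 and 0.84, and its sign differed between pair 3 and the rest. For the abundant enzymes the block gave log2 fold changes of 0.00 for Aldoa (SE 0.08), 0.03 for Tpi1 (SE 0.12), 0.06 for Ldha (SE 0.12) and -0.01 for Gpi1 (SE 0.16).

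**Figure D4:**
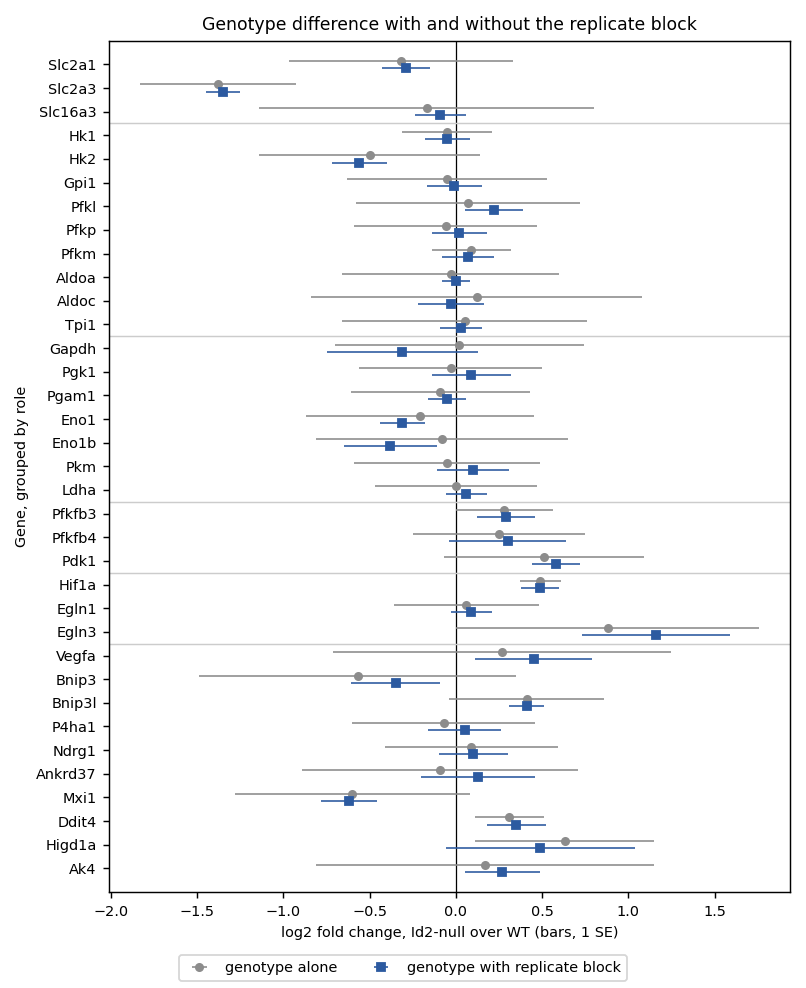
Log2 fold change of each member in Id2-null over WT cultures, with bars of 1 SE, from the model with genotype alone (grey circles) and with the replicate number as a block (blue squares), with genes grouped by role. The block narrows the median SE to 0.16, against 0.58 without it, and Slc2a3 at -1.35 is the only member called.

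When replicate 3 of both genotypes was left out, a choice made with results known, Slc2a3 alone was called without the block (log2 fold change -1.41, against 9.16% of genes called). With the block on the remaining 4 cultures, which leaves 1 residual degree of freedom, 9 members were called, against 14.9% of genes. Egln3, Pdk1, Hif1a and Bnip3l were higher in Id2-null cells, by 0.65, 0.44, 0.38 and 0.37 on the log2 scale. Slc2a3, Bnip3, Mxi1, Hk2 and Slc2a1 had log2 fold changes of -1.41, -0.66, -0.61, -0.52 and -0.36.

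Among the 113 tested genes of the pathway lists, 0 were higher and 1 was lower in Id2-null cells, against 1.84 and 1.52% of all genes. The lower gene was Arnt2, which encodes a partner of HIF proteins known mainly from neurons, with counts of 0, 2 and 4 in Id2-null and 14, 22 and 35 in WT libraries (log2 fold change -3.41, adjusted p = 0.0417, edgeR). With the replicate block 5 of the list genes were called, against 6.31% of all genes. Slc2a6, a glucose transporter of lysosomes, had a log2 fold change of 1.18 (adjusted p = 0.0102), and Tfrc, the transferrin receptor, one of 0.81 (adjusted p = 0.0096). Gyg, which primes glycogen, had 0.42 (adjusted p = 0.0458), Ier3 had -0.92 (adjusted p = 0.0257) and Arnt2 had -3.46 (adjusted p = 0.016). Beside these comparisons, marker lists were summed on the 9-library scale. The 12 NK markers, of which 1 was called, summed to 8406.2 to 9164.4 CPM in Id2-null cultures and 10970.7 to 14237.0 CPM in WT cultures. Much of that gap lay in Gzma, with 163.2 to 769.3 CPM in Id2-null and 3104.3 to 5127.8 CPM in WT on the 6-library scale. Prf1 had 307.1 to 713.9 CPM in Id2-null and 619.9 to 2093.8 CPM in WT. Without the block, Ncr1, Klrb1c, Klrd1, Klrk1, Il2rb, Eomes and Tyrobp had log2 fold changes of 0.02 to 0.33. Nkg7, Fcer1g and Tbx21 had -0.16, -0.36 and -0.60. The 6 markers of type 1 innate lymphoid cells summed to 69.6 to 93.0 CPM in Id2-null and 277.7 to 303.5 CPM in WT cultures, with all 5 tested ones called for genotype, as they were with the block. With the block 3 NK markers, Gzma, Prf1 and Tbx21, were called and had log2 fold changes of -3.21, -1.43 and -0.60. So were 3 T cell genes, with 2.19 for Cd3d, 1.80 for Cd3g and -1.19 for Cd3e. Xcr1 of the dendritic cell list, with 0 to 28 counts per culture, was called at -3.69 with the block. Of the stroma and endothelium list the 1 gene tested, Pecam1, which leukocytes also express, was called at -1.64 with the block, and the other 6 had 0 to 3 counts. Their part in the genotype values was not tested.

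The sorted populations, with 1 library each and no replicate check, place the cultures beside cells that had no IL-15 culture, and levels are CPM scaled over all 9 libraries. All 3 WT cultures lay above Immature, M1 and M2 for 18 of 35 members, against 31.0% of genes, and all 3 lay below for 0, against 33.8%. WT replicates 1 and 2 lay above all sorted libraries for 32 members (34.8% of genes), the exceptions being Pfkfb4, Bnip3l and Higd1a, and below all of them for 0 (36.5%). WT replicate 3 lay above for 18 (39.2%) and below for 12 (42.0%). The median member was higher than the sorted mean by 2.31 on the log2 scale in WT replicates 1 and 2 and by 0.32 in WT replicate 3, where all genes had medians of -0.01 and -0.04. Culture and sorting cannot be told apart in this comparison.

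Members differed in how far WT replicate 3 stood from the sorted cells. Hk2 had 156.2, 170.4 and 42.4 CPM in WT replicates 1 to 3, against 6.37, 5.55 and 5.52 CPM in Immature, M1 and M2 cells. Aldoc had 199.4, 210.2 and 23.1 CPM in WT cultures, against 2.29, 1.45 and 2.51 CPM in the sorted populations, from 9, 6 and 10 counts. Both were thus well above the sorted cells in every WT culture. Slc16a3, with 352.9, 333.5 and 27.6 CPM against 11.0, 10.6 and 20.8 CPM, was far above them in WT replicates 1 and 2 and only slightly above M2 in replicate 3. Ak4 had only 2, 1 and 1 counts in Immature, M1 and M2, and 43.0, 38.3 and 1.93 CPM in WT cultures. Vegfa, in contrast, had 114.1, 121.5 and 5.98 CPM in WT cultures, against 7.39, 14.0 and 13.8 CPM, so replicate 3 lay below all sorted cells. The same held for Bnip3, with 129.7, 85.0 and 6.75 CPM against 11.0, 14.7 and 12.8 CPM, and for Slc2a1, with 251.1, 281.7 and 58.2 CPM against 66.8, 86.9 and 88.1 CPM. Aldoa stood at 2888.3, 3329.4 and 717.5 CPM, against 418.9, 455.0 and 431.7 CPM, and Hif1a at 171.6, 197.5 and 159.0 CPM, against 135.6, 128.7 and 118.9 CPM. Every WT culture lay above every sorted library for both genes, by a narrower margin for Hif1a.

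**Figure D5:**
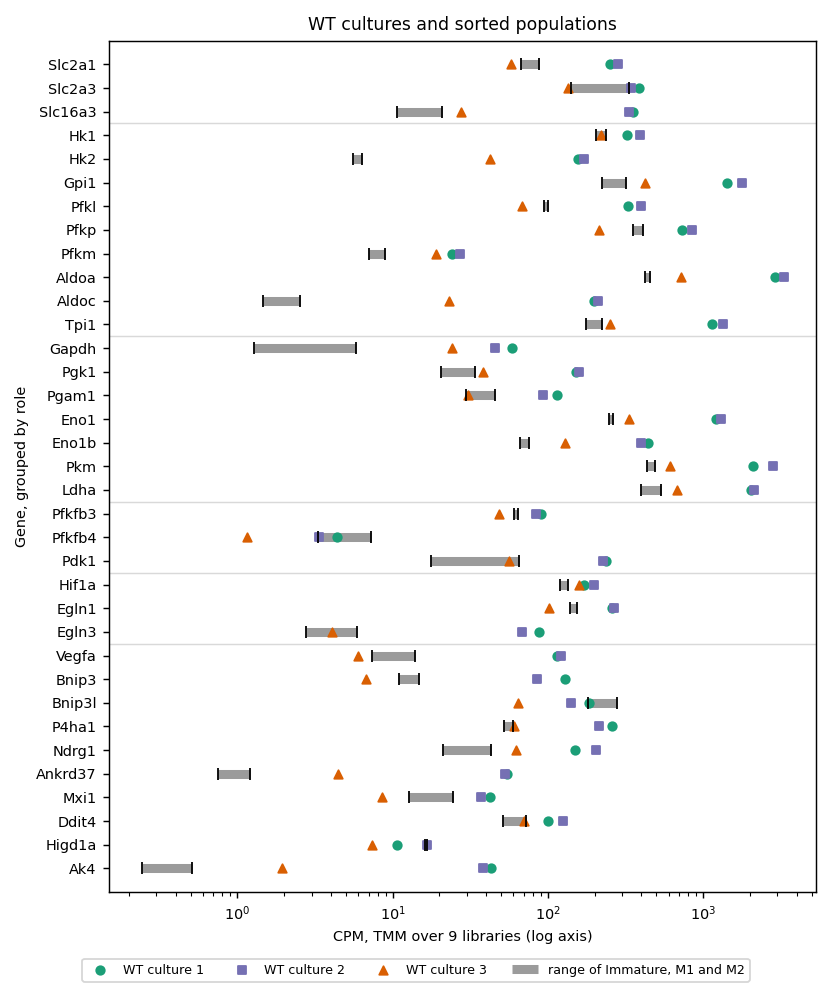
CPM scaled over 9 libraries on a log axis for each member in the 3 WT cultures (symbols) and the range over the sorted Immature, M1 and M2 libraries (grey bar between black ticks). WT replicates 1 and 2 lie right of the range for 32 members, and WT replicate 3 for 18.

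Between the sorted populations the members were mostly level. M2 stood over 2-fold from Immature with separate exact Poisson 95% intervals, which cover counting error only, for 1 member above (5.40% of genes) and 2 below (4.36%). Slc2a3 had 141.3 CPM in Immature (interval 129.7 to 153.5), 210.3 CPM in M1 (196.6 to 224.8) and 330.4 CPM in M2 cells (312.8 to 348.7). Pdk1 had 65.5 CPM in Immature (57.8 to 74.0), 28.7 CPM in M1 (23.8 to 34.4) and 17.6 CPM in M2 cells (13.7 to 22.2). Ndrg1 had 43.1, 25.1 and 21.1 CPM in Immature, M1 and M2 cells, with intervals of 36.8 to 50.1, 20.5 to 30.4 and 16.8 to 26.1. Slc2a3 was thus higher at each step from Immature through M1 to M2 and Pdk1 lower at each, while for Ndrg1 the intervals of M1 and M2 overlapped. The median member stood at -0.04 in M2 relative to Immature on the log2 scale, and all genes at 0.02. With the limit at 1.5-fold, 4 members were above (9.73% of genes) and 4 below (8.12%), or 8 in all. Markers of monocytes and macrophages summed to 155.5, 150.2 and 642.5 CPM in Immature, M1 and M2 and those of neutrophils to 92.0, 125.6 and 545.4 CPM, against 4.49 to 21.7 CPM and 0.00 to 0.22 CPM over the 6 cultures. Their part in the values of the sorted populations was not tested.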

How the data were processed

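The deposited files hold raw counts per Entrez gene for each of the 9 libraries, with a gene length, per the file headers. The submitters' processing notes name Subread, featureCounts, limma and the build GRCm38 (mm10). The sources used here do not give versions, the strand setting or the handling of reads with several matches. Total RNA was purified on columns and reverse transcribed, per the labels' protocols. Symbols and coordinates came from RefSeq (GRCm38.p6). Shared 50-base stretches are those of a member's GENCODE protein-coding transcripts that occur, on either strand, in any GENCODE transcript of another gene, pseudogenes included.

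The 35 members, the 9 pathway lists and the 10 marker lists were chosen with earlier results of these data known. Genes were kept by filterByExpr (minimum count 10), which left 11022 in the 6 cultures and 12326 over 9 libraries. Counts were scaled by TMM and tested in R 4.3.3 with edgeR 4.0.16 (quasi-likelihood, Benjamini-Hochberg, called at adjusted p under 0.05), for genotype alone and for replicate number beside genotype. Standard errors of edgeR fold changes were not fitted. They were derived as the absolute log2 fold change over the square root of the F statistic, which may be imprecise where both are near 0. The scripts were tested on simulated counts. Deviations from the genotype means, in log2(CPM + 0.5), correlated at 0.353, 0.242 and 0.418 in same-numbered pairs 1, 2 and 3 over 11022 genes, all over 0.1. Replicate 3 of either genotype correlated at -0.398 to -0.262 with replicates 1 and 2 of the other. The 3 deviations of a genotype sum to 0 for each gene, so these values are not independent. A positive value for pair 3 by itself draws these below 0, and those among numbers 1 and 2 above 0, on balance. Id2-null 1 with WT 2 gave 0.189 and Id2-null 2 with WT 1 gave 0.135, also over 0.1. The check thus shows only that replicate 3 deviated alike in both genotypes. It does not separate numbers 1 and 2, and the labels state no pairing. The block is therefore given beside the genotype results. RPKM used the deposited length.

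Alternatives were the replicate block, other scalings, no filter, DESeq2 1.42.0, limma 3.58.1 (voom), all 9 libraries and libraries left out. Every member is accounted for. Values of each culture are given for members called for genotype or replicate number and for Hif1a, and of the pathway lists for up to 3 called genes each with Mki67 and Myc. The values of Ddit4, and the members described in the sorted populations, were chosen after their values were seen.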

Additional observations from a re-analysis of the deposited data

How the results depend on the processing

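Between genotypes, the count of genes was 370, and moved to 696 with the replicate block, 580 with DESeq2, 105 to 624 with 1 library left out, 1014 without replicate 3 of both genotypes and 1649 without them in the block, an alternative added after the data were seen. Members called were 0, and 1 with the block, 1 with DESeq2, 1 without replicate 3 of both genotypes, 9 with the block as well, and 0 in each of the 6 fits with 1 library left out. Pathway list genes called were 1, and 5 with the block, 0 with limma voom and 0 with all 9 libraries in the fit. They were 0 to 1 with 1 library left out. Without replicate 3 of both genotypes they numbered 8, and 17 with the block as well. Of all genes tested, 3.36% were called, 6.31% with the block and 2.93% with limma voom. The share was 9.16% without replicate 3 of both genotypes, and 14.9% with the block as well. For replicate number, 135 genes were called, and 203 with no filter, 349 with DESeq2 and 0 to 2409 with 1 library left out, and members numbered 20, and 0 to 31 with 1 library left out. The WT cultures lay apart from the sorted populations for 18 members, and for 19 to 32 with 1 culture left out, the highest without WT replicate 3. Between M2 and Immature 3 members passed 2-fold and 8 passed 1.5-fold. Of 525 member fold changes recomputed, 0 that passed the threshold turned in sign, and 89 turned between values that both missed it. Higd1a moved to -0.15 without Id2-null replicate 3 and to -0.39 without replicate 3 of both. The cause of these shifts was not tested.

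With 3 libraries per genotype and replicate 3 far from the others, a genotype difference of a member had a median standard error of 0.58 on the log2 scale without the block, so modest differences were not detectable there. Levels near 1 CPM, as for Pfkfb4 in WT replicate 3 or Ak4 in the sorted cells, rest on few counts. The sorted populations have no replicates. Shared transcript sequence limits Gapdh, Eno1b, Pgk1, Bnip3, Eno1 and Pgam1.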

Other observations

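The cultures used 1 form of several glycolytic enzymes almost alone. Ldhb, the lactate dehydrogenase chain of oxidative tissues, had 0 counts in all Id2-null libraries and 0, 1 and 0 in WT, beside a mean of 865.2 RPKM for Ldha. Pklr, the pyruvate kinase of liver and red cells, had 1, 0 and 0 counts in Id2-null and 0 in each WT library. Pgk2, Slc2a4 and Slc2a5 had 0 counts in all 6, and Eno2, the neuronal enolase, had 0 in Id2-null and 1, 0 and 0 in WT libraries. Hk3, the myeloid hexokinase, was present at 47.5, 37.8 and 23.9 CPM in Id2-null cultures and 48.5, 47.7 and 58.4 CPM in WT replicates 1 to 3, and Eno3, the muscle enolase, at 39.8 to 44.0 CPM in Id2-null and 33.4 to 42.2 CPM in WT.

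Gapdh stood low for its place in the pathway. Per length its mean over the cultures was 36.4 RPKM, beside 603.6 RPKM for Tpi1 before it and 66.4 RPKM for Pgk1 after it. Its level was 65.9, 64.4 and 5.35 CPM in Id2-null, against 61.1, 47.2 and 25.2 CPM in WT replicates 1 to 3, and 1.27, 5.80 and 4.26 CPM in Immature, M1 and M2 cells. Eno1b, whose transcripts share 85.2% of their 50-base stretches with other genes, and Gapdh both had their lowest genotype ratio in pair 3. On the log2 scale these were -1.28 for Eno1b and -2.23 for Gapdh. Of the other members named for shared sequence, Eno1 was also lowest in pair 3, at -0.61. Pgk1, Bnip3 and Pgam1 were highest there, at 0.75, 0.84 and 0.16. Aldoc, with 0.0% of its stretches shared, was lowest there too, at -0.41. In the same library, Id2-null replicate 3, the gene Gm5781 stood at -6.81 on the log2 scale relative to replicates 1 and 2, and Ubb, a ubiquitin gene, at -3.28, where WT replicate 3 had 0.14 and 0.07 (chosen after their values were seen). The part of shared sequence and of this library in these values was not tested.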
